A study of Mus musculus with 35 samples.

Results

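The genes described here are 41 genes that act in mitosis, chosen by name from each library's table, which listed 53715 genes in back skin and 49585 genes in the other tissues. All 41 had at least 1 read in each of the 35 libraries, and all 41 passed the filter on low counts in every fit, so no member is missing from any count below. The RNA came from epithelial cells sorted from C57BL/6J mice of the genotype K5-tTA/pTRE H2B-GFP at 2 months of age. In these mice the keratin 5 promoter, active in basal epithelial cells, drives a doxycycline-repressible activator of a green fluorescent histone, so cells that divide on doxycycline dilute the label. All animals, including the source of every comparison library, carried both transgenes and ate doxycycline chow, for 2 weeks before skin was taken and for 10 days before oral tissue was taken. Label-retaining cells (LRC), named slow-cycling in the labels, were set against non-label-retaining cells (nLRC), named fast-cycling, in the spinous layer of back skin and in the basal layer of back skin, tail skin, palate and tongue. Back skin also gave granular layer and hair follicle bulge libraries, and tail skin gave bulge libraries. Each of the 9 skin groups had 3 libraries and each of the 4 oral groups had 2. The labels do not say that replicates came from separate animals, so the p-values cover no more than the spread among these libraries.

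Entry into mitosis depends on cyclin-dependent kinase 1 (Cdk1) bound to A- and B-type cyclins, helped by the polo-like and aurora kinases. The kinetochore ties chromosomes to the spindle, the spindle checkpoint holds the cell until all are attached, and Cdc20 and Ube2c then let the anaphase-promoting complex mark cyclins for destruction before the cytokinesis proteins divide the cell. Most of these genes are transcribed late in the cell cycle, through promoters that often combine a cell cycle homology region (CHR), read by the MuvB complexes with B-Myb and Foxm1, with CCAAT boxes read by NF-Y. In skin they are usually read as markers of dividing basal cells, since keratinocytes leave the cell cycle as they move up into the spinous and granular layers.

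RefSeq promoter windows of build GRCm38.p6, from 250 bases before to 50 bases after each start site, were matched by symbol for 35 of the 41 genes. A CHR (TTTGAA or TTCGAA, either strand) stood in 28 of these 35, or 80.0%, against 21.7% of the 27025 genes in the table. A CCAAT box (CCAAT, either strand) stood in 26 of 35, or 74.3%, against 41.1% of all genes, and both motifs in 23 of 35, or 65.7%, against 9.65%. A CHR began within 50 bases of the start site in 25 of 35 genes, or 71.4%, against 6.12% of all genes. These matches of letters describe the promoters and are not measurements of binding. The windows below, from 120 bases before to 20 bases after the start and chosen after the values were seen, show Cdk1 and Top2a, which are described in every LRC comparison, Kif11 and Cenpf, which are among the clearest changes, Ttk, which moved against the others, and Nusap1, which held neither motif. Capitals mark CHR and CCAAT matches on either strand. Cdk1 is read from chr10:69352893-69353032 on the minus strand, Top2a from chr11:99024170-99024309 on the minus strand, Kif11 from chr19:37376262-37376401 on the plus strand, Cenpf from chr1:189688067-189688206 on the minus strand, Ttk from chr9:83834569-83834708 on the plus strand and Nusap1 from chr2:119618178-119618317 on the plus strand.
Cdk1: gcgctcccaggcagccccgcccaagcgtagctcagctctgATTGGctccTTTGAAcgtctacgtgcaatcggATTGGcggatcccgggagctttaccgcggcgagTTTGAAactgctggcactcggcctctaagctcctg
Top2a: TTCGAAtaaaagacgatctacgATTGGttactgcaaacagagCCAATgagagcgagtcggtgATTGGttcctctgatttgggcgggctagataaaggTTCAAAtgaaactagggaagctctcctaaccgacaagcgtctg
Kif11: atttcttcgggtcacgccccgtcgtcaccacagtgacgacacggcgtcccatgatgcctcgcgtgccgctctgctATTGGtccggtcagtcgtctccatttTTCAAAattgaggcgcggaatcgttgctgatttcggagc
Cenpf: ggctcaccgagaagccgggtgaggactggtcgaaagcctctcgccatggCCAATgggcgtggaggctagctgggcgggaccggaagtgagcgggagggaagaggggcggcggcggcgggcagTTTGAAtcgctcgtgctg
Ttk: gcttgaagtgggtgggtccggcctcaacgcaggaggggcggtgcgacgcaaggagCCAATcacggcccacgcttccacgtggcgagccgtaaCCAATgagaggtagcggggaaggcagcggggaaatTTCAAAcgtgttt
Nusap1: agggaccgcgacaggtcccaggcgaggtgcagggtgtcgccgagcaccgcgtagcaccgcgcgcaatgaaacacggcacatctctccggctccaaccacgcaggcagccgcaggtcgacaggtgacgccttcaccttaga

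The libraries held 8421582 to 20560481 gene reads, of which the 41 genes took 2536 to 50680 reads, or 0.0248% to 0.360%. Levels are given as CPM, the reads of a gene relative to its library total, scaled by the trimmed mean of M-values (TMM) within back skin, within tail skin or within oral tissue, and can be compared only within one of these sets. The second back bulge library stood apart, with 9785944 reads, a TMM factor of 0.500 and 28.7% of its reads in ribosomal-like genes, and it was the highest of the 18 back libraries for 39 of the 41 genes. Markers of the labelled layers were present: basal markers summed to 24707 to 28124 CPM in back basal LRC and 26790 to 34075 CPM in back basal nLRC libraries, against which spinous LRC libraries had 7463 to 10456 CPM and granular libraries 4322 to 5619 CPM. The spinous nLRC libraries went against their label in part, since spinous markers summed to 2062 to 3868 CPM there, near the 1916 to 3253 CPM of all back basal libraries, while spinous LRC libraries had 10487 to 15705 CPM.

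By summed level, the mitosis genes of back skin were lowest in granular and spinous LRC libraries, and those of tail skin were lowest in the bulge. In back skin the sum was 257, 332 and 278 CPM in granular libraries, 237, 335 and 356 CPM in spinous LRC, 741, 1318 and 881 CPM in spinous nLRC, 643, 658 and 801 CPM in basal LRC and 648, 848 and 859 CPM in basal nLRC. Granular and spinous LRC libraries overlapped each other and lay below all basal and spinous nLRC libraries, and the basal LRC and nLRC libraries overlapped. In the back bulge the sum was 704, 3479 and 662 CPM. In tail skin it was 779, 457 and 387 CPM in the bulge, 3084, 1240 and 1968 CPM in basal LRC and 1448, 1024 and 1202 CPM in basal nLRC libraries. In palate it was 1384 and 1988 CPM in LRC and 1043 and 1563 CPM in nLRC libraries, and in tongue 1321 and 773 CPM in LRC and 1300.5 and 1117 CPM in nLRC libraries. In bulk libraries such as these, fewer dividing cells and less of each RNA per cell cannot be told apart.

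**Figure D1:**
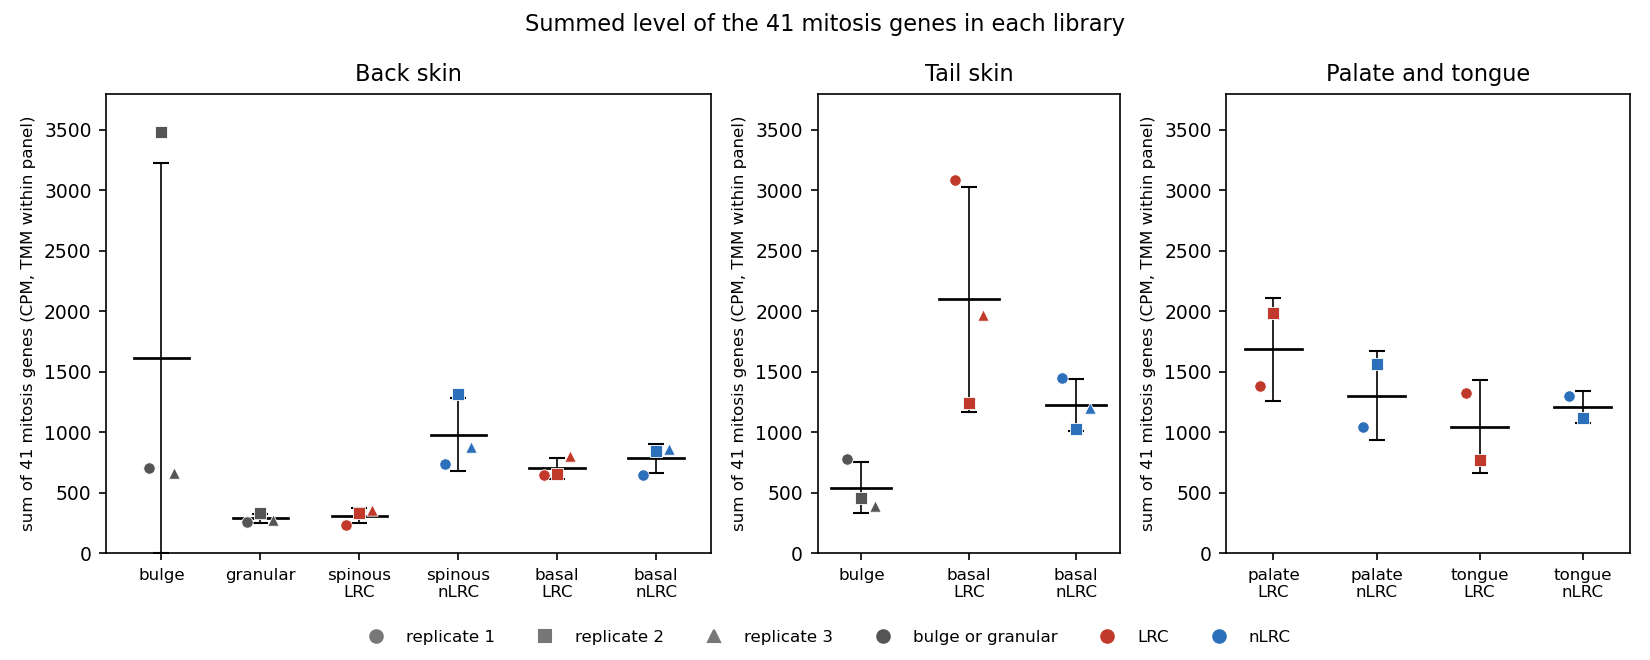
Sum of the 41 mitosis genes (y axis, CPM scaled within each panel) in every library, by group (x axis); points are libraries, lines are means and bars are SD. The granular and spinous LRC libraries lie between 237 and 356 CPM, below every basal library of back skin, and the second bulge library lies at 3479 CPM.

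Between genes, levels can be compared only per transcript length, as TPM, the transcript share after division by length. On that scale Mki67, which encodes a surfactant of mitotic chromosomes, was highest of the 41 by its median over all libraries of a set, at 57.3 TPM in back skin and 52.2 TPM in the tail and oral libraries. Top2a, a DNA topoisomerase that untangles chromosomes, had a median of 38.6 TPM in back skin and 23.9 TPM in the other tissues. Cdc20, Anln and Incenp came next in back skin, with medians of 36.1, 29.3 and 26.0 TPM, and Incenp came ahead of Top2a in the other tissues at 26.1 TPM. Within groups the order differed: by mean TPM Ttk was highest in spinous LRC (36.5 TPM) and in granular libraries (32.2 TPM, with Mki67 at 17.1 TPM). Cdc20 was ahead of Mki67 in the back bulge (65.4 and 62.0 TPM), and Incenp was level with Mki67 in the tail bulge (18.7 and 18.4 TPM). By library the back bulge had 60.6, 98.45 and 37.2 TPM of Cdc20 and 53.0, 71.3 and 61.6 TPM of Mki67. The order of the means thus leaned on the second library, and the third had the opposite order. TPM values of the 2 sets of tables were made over different gene lists and are not compared with each other.

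In the spinous layer of back skin the mitosis genes fell in LRC libraries relative to nLRC libraries. Of the 41, 30 fell, 1 rose and 10 did not pass the test (edgeR's quasi-likelihood test, Benjamini-Hochberg over all genes), against 15.5% of all 16574 genes called, 8.63% lower and 6.88% higher. The median log2 fold change was −2.08 over the 41 genes and −0.01 over all genes tested. In 38 of the 41 genes every LRC library lay below every nLRC library, which held for 21.3% of all genes, and in each pair of same-numbered libraries 38 to 40 genes were lower in LRC.

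All 4 genes of the entry switch, Cdk1 and the cyclins Ccna2, Ccnb1 and Ccnb2, fell. Cdk1 had 1.82, 2.52 and 4.13 CPM in spinous LRC libraries, against 16.2, 19.4 and 15.5 CPM in spinous nLRC libraries. The groups were well apart, and Cdk1 was 6.03-fold lower (log2 −2.59 ± 0.62 SE, adjusted p = 0.00926). Of the mitotic kinases Plk1, the polo-like kinase, had 2.37, 3.74 and 2.43 CPM in spinous LRC libraries, against 11.04, 16.2 and 8.90 CPM in spinous nLRC libraries. Plk1 was 4.23-fold lower (log2 −2.08 ± 0.67, adjusted p = 0.0458), near the threshold, and Nek2, a kinase that splits the centrosomes, fell too, while Aurka did not pass (log2 −1.42).

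Of 7 kinetochore and checkpoint genes 6 fell. Cenpf, a large kinetochore protein, had 1.94, 3.29 and 4.13 CPM in spinous LRC libraries, against 14.96, 38.2 and 30.2 CPM in spinous nLRC libraries. This was the largest fall of the 41 genes, at 8.90-fold (log2 −3.15 ± 0.60, adjusted p = 0.00199). Cenpe, the kinetochore motor that moves chromosomes to the spindle equator, had 1.52, 1.74 and 2.36 CPM in spinous LRC libraries, against 12.3, 18.6 and 16.9 CPM in spinous nLRC libraries. Every LRC library was below 3 CPM and every nLRC library above 12 CPM, an 8.47-fold fall (log2 −3.08 ± 0.64, adjusted p = 0.00344). Ndc80, the microtubule-binding subunit of the outer kinetochore, did not pass (log2 −0.96). In the chromosomal passenger complex, which corrects wrong attachments, Cdca8 fell, and Aurkb, Birc5 and Incenp did not pass, with log2 values of −1.73, −1.57 and −0.85. Counts of Kif20a, Ube2c, Ccna2 and Cdca8 are uncertain in every comparison, since coding genes on the opposite strand overlap 26.9%, 18.6%, 11.8% and 10.9% of them and the use of strand in counting is not known here.

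Of 10 spindle genes 8 fell, Nusap1 and Tacc3 being the others. Tpx2, which activates Aurora A and seeds microtubules near chromosomes, had 2.79, 4.58 and 6.69 CPM in spinous LRC libraries, against 20.04, 35.3 and 18.1 CPM in spinous nLRC libraries. It was 5.22-fold lower, with the smallest p of the 41 (log2 −2.39 ± 0.43, adjusted p = 0.0013). Kif11, the motor that pushes the spindle poles apart, had 3.28, 5.10 and 7.15 CPM in spinous LRC libraries, against 19.7, 29.0 and 21.9 CPM in spinous nLRC libraries. The groups did not overlap and Kif11 was 4.54-fold lower (log2 −2.18 ± 0.46, adjusted p = 0.00407). Aspm, a protein of the spindle poles, had 3.89, 6.58 and 5.45 CPM in spinous LRC libraries, against 15.7, 34.7 and 21.4 CPM in spinous nLRC libraries, a 4.51-fold fall (log2 −2.17 ± 0.44, adjusted p = 0.00291).

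Both genes of the anaphase ubiquitin ligase fell, and 5 of 8 cytokinesis genes fell, with Cep55, Kif23 and Prc1 not passing. Mki67 had 13.6, 28.9 and 40.0 CPM in spinous LRC libraries, against 148, 306 and 174 CPM in spinous nLRC libraries. The highest LRC library was well below the lowest nLRC library, and Mki67 was 7.62-fold lower (log2 −2.93 ± 0.57, adjusted p = 0.0022). Top2a had 16.2, 28.5 and 37.7 CPM in spinous LRC libraries, against 86.9, 151 and 115 CPM in spinous nLRC libraries, a 4.28-fold fall (log2 −2.10 ± 0.55, adjusted p = 0.0161).

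Sebocyte markers moved with these genes: 10 of 12 fell in spinous LRC libraries, and their sum was 706 to 807 CPM in spinous LRC, against 4116 to 8276 CPM in spinous nLRC libraries, with no marker at 0 in either group. All 4 spinous markers rose in spinous LRC libraries. The share of reads from introns in the median gene was 36.6%, 32.3% and 31.9% in spinous LRC libraries, against 31.0%, 21.1% and 22.1% in spinous nLRC libraries. The part of the cell makeup and of RNA quality in the mitosis result was not tested. The number of members called was 9 without the first spinous LRC library and 12 without the second spinous nLRC library. It was 37 without the second back bulge library, which is in neither group compared. Shares of all genes under these settings are not given here.

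**Figure D2:**
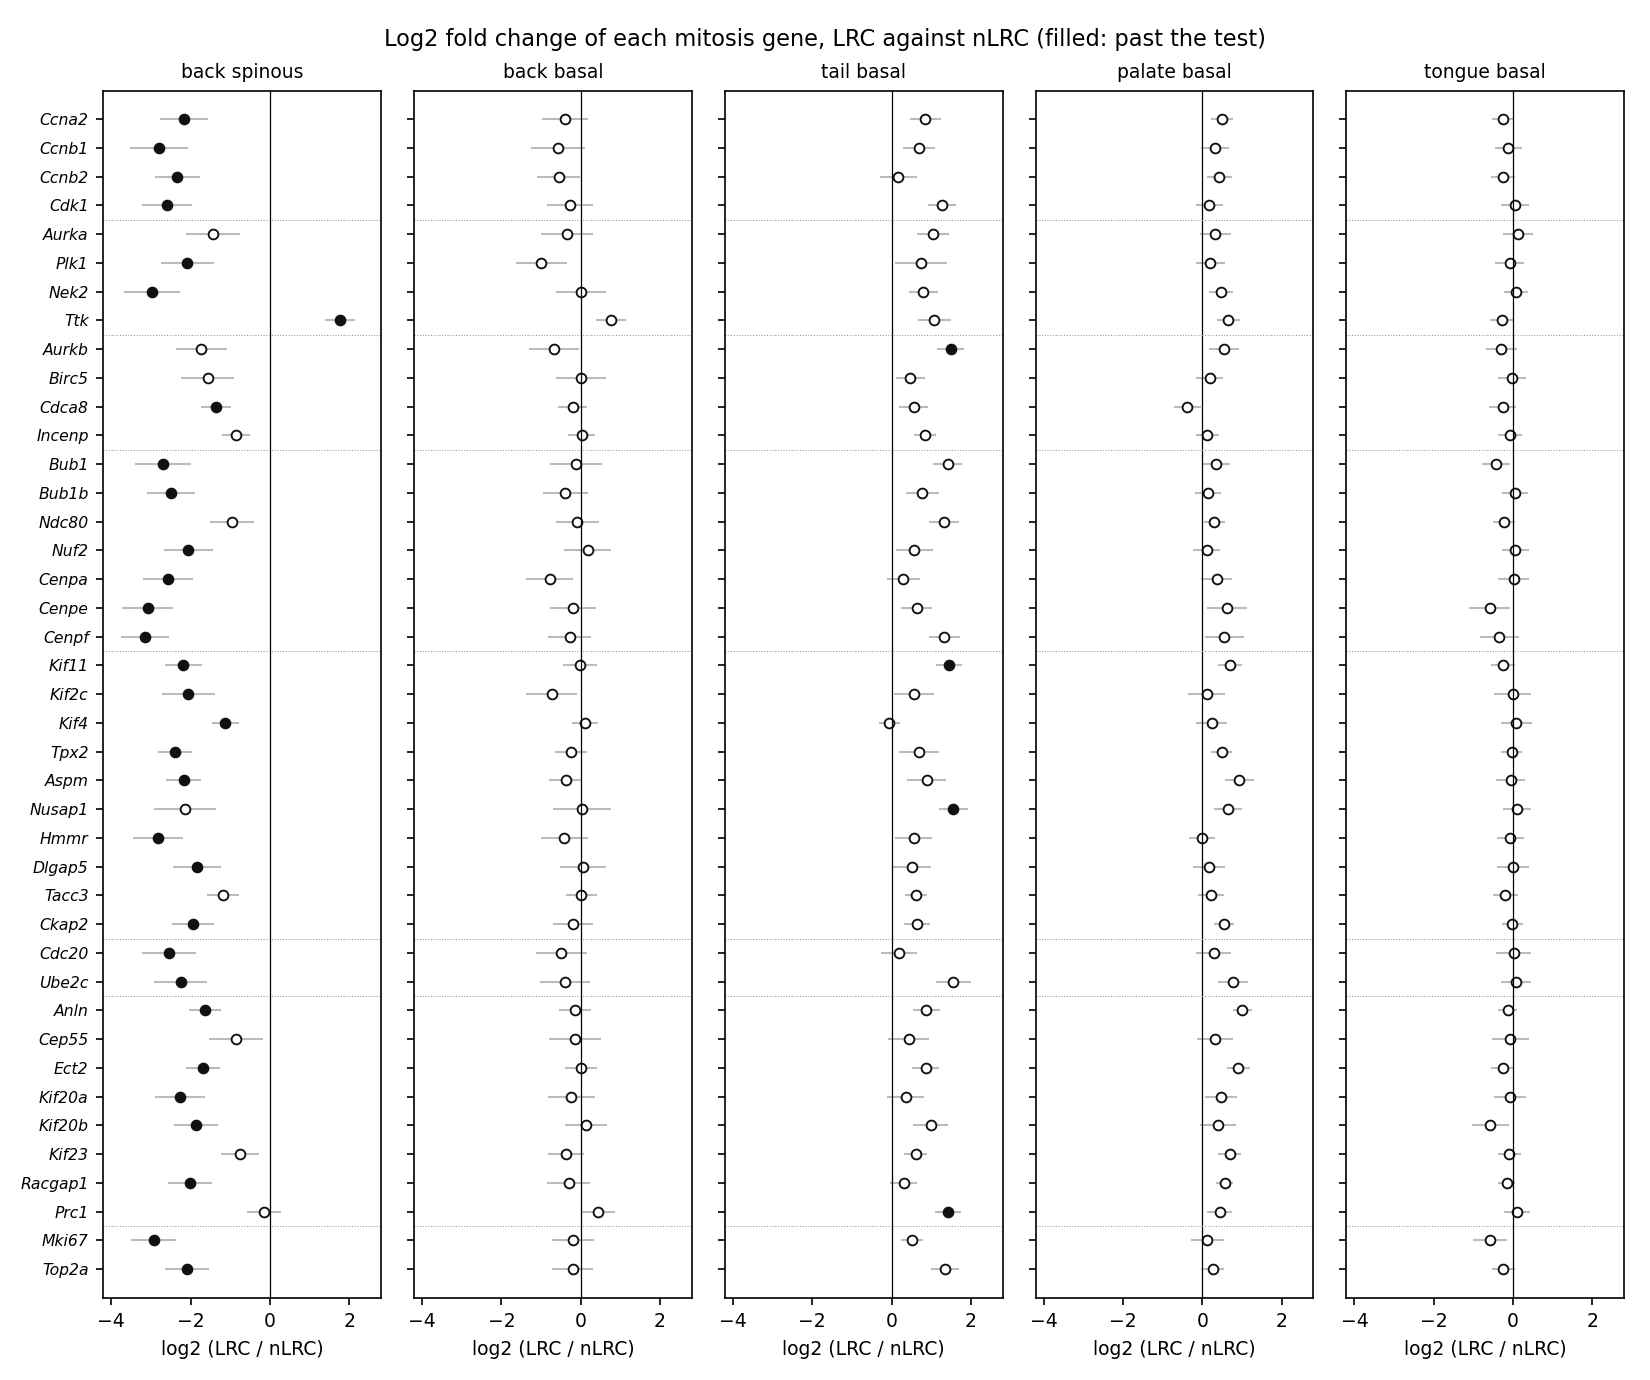
Log2 fold change of LRC over nLRC (x axis) of each of the 41 genes (rows, by role from the cyclins at the top to Mki67 and Top2a) in 5 comparisons; points are estimates, bars are SE, and filled points passed the test. The spinous layer has 31 filled points, all to the left of 0 except Ttk, tail skin has 4 to the right, and the other 3 panels have none.

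Ttk, the Mps1 kinase that starts spindle checkpoint signalling, was the 1 member that rose in spinous LRC and granular libraries. It had 80.1, 67.9 and 53.4 CPM in spinous LRC libraries, against 21.8, 20.5 and 16.9 CPM in spinous nLRC libraries. Every spinous LRC library was above every spinous nLRC library, a 3.40-fold rise (log2 1.77 ± 0.38, adjusted p = 0.00456), and Ttk passed the test without each of the 6 libraries in turn, with adjusted p between 0.00736 and 0.0249. Granular libraries had 78.9, 60.4 and 60.9 CPM, basal LRC libraries 24.995, 20.9 and 25.2 CPM and basal nLRC libraries 16.9, 14.3 and 10.8 CPM. Spinous LRC and granular libraries thus overlapped at the top, basal LRC overlapped spinous nLRC libraries below them, and the highest basal nLRC library was level with the lowest spinous nLRC library. The bulge libraries, at 14.3, 37.2 and 7.84 CPM, spanned the basal range.

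The same separation was seen in the authors' exon-based TPM, where Ttk had 44.5, 35.9 and 29.1 TPM in spinous LRC libraries, against 12.2, 11.05 and 10.9 TPM in spinous nLRC libraries. Ttk exceeded Mki67 in all 3 spinous LRC libraries on that per-length scale, where Mki67 had 7.45, 15.4 and 19.3 TPM. The gene lies at chr9:83834689-83872389 on the plus strand of mm10, and no other annotated gene overlaps it. Its promoter window printed above held a CHR and 2 CCAAT boxes, as in other members. In tail skin Ttk did not stand against the other members: it had 4.87, 2.90 and 1.37 CPM in bulge, 20.4, 8.06 and 11.6 CPM in basal LRC and 7.11, 5.41 and 6.49 CPM in basal nLRC libraries.

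**Figure D3:**
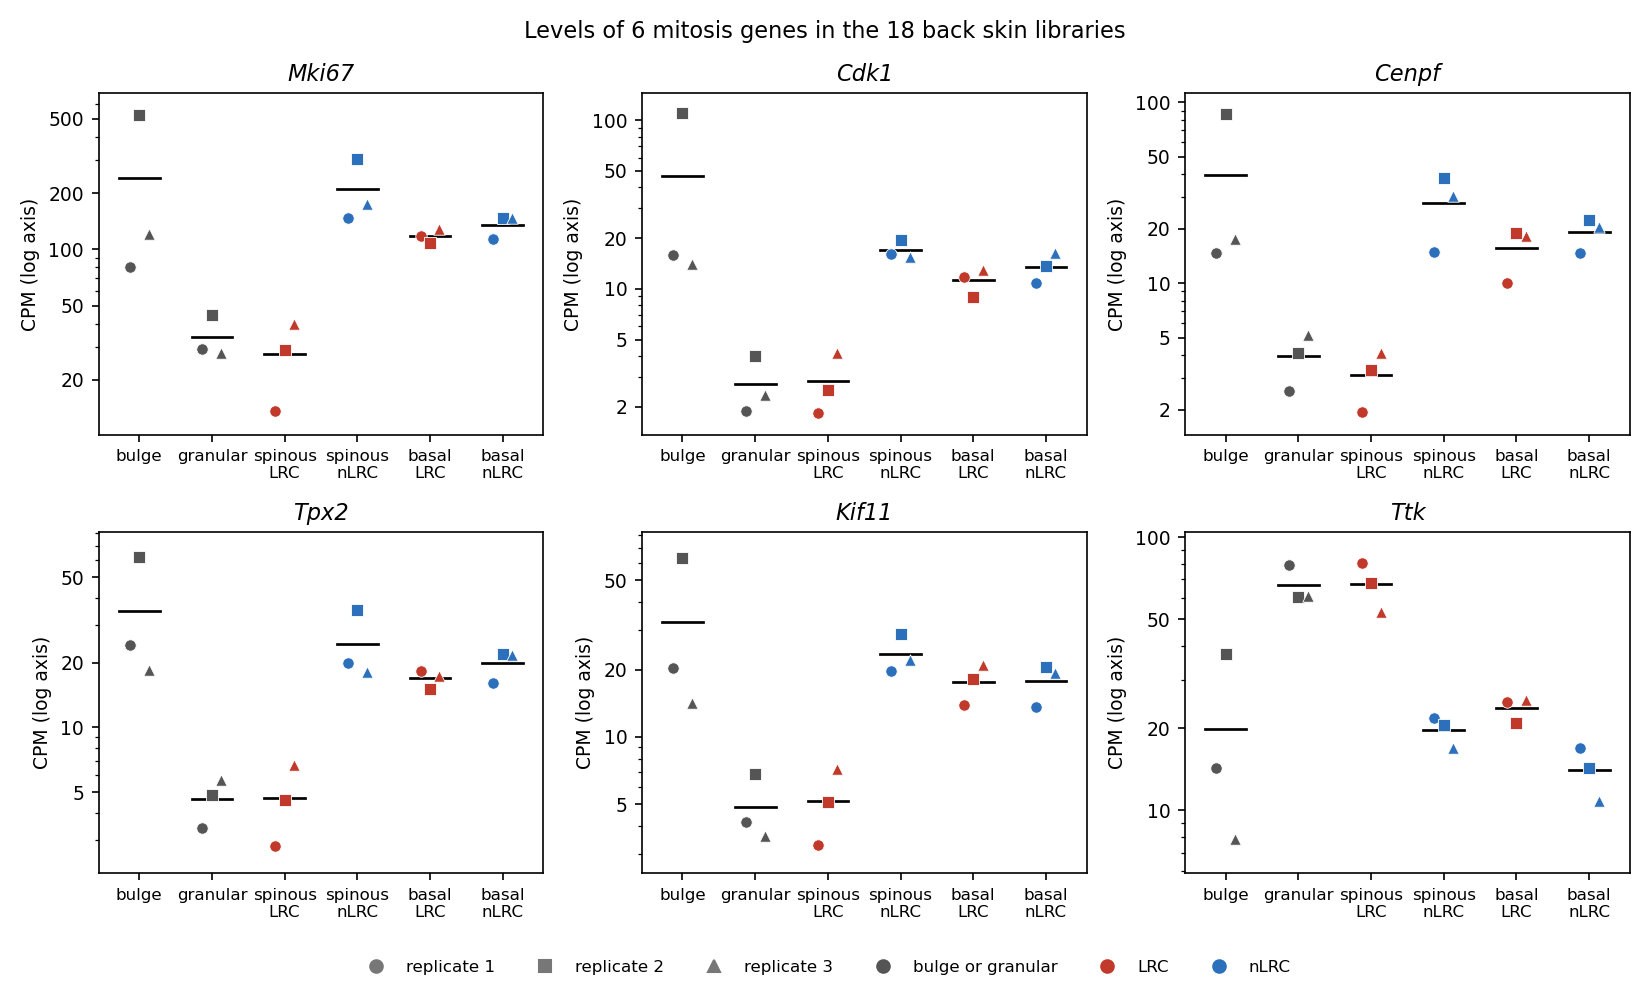
Levels (y axis, CPM, log axis) of 6 genes in the 18 back skin libraries by group (x axis); points are libraries and lines are means. Mki67, Cdk1, Cenpf, Tpx2 and Kif11 are low in granular and spinous LRC libraries, and Ttk is highest there, at 53.4 to 80.1 CPM.

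In the basal layer of back skin no mitosis gene passed the test between LRC and nLRC libraries. The count was 0 of 41 by edgeR and 0 by DESeq2, 0 members had an unadjusted p under 0.05, against 4.84% of all genes, and 0.235% of all genes were called, 0.0121% higher and 0.223% lower. The median log2 fold change was −0.20 over the 41 genes, of which 31 were negative, and −0.01 over all genes. Mki67 had 118, 108 and 128 CPM in basal LRC libraries, against 113, 147 and 147 CPM in basal nLRC libraries (log2 −0.20 ± 0.52). Top2a had 69.5, 59.7 and 99.3 CPM in basal LRC libraries, against 68.0, 93.4 and 102 CPM in basal nLRC libraries (log2 −0.21 ± 0.53). The groups overlapped for both genes, for Mki67 only in part, with 2 of 3 nLRC libraries above every LRC library. Cdk1 had 11.8, 8.95 and 12.9 CPM in basal LRC libraries, against 10.9, 13.6 and 16.2 CPM in basal nLRC libraries (log2 −0.27 ± 0.57). Plk1 had 2.84, 6.27 and 4.24 CPM in basal LRC libraries, against 5.10, 11.5 and 10.0 CPM in basal nLRC libraries, the most negative estimate of the 41 (log2 −0.99 ± 0.65). With a median SE of 0.57 on the log2 scale, differences of the size of these medians were not detectable here. In 3 members, Aurka, Aurkb and Kif2c, every LRC library lay below every nLRC library, against 8.67% of all genes, and in 1, Ttk, every LRC library lay above, against 6.2% of all genes.

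The LRC effect in the spinous layer minus that in the basal layer was negative for 40 of 41 genes, with Ttk the exception, and had a median of −1.78 on the log2 scale. No member passed the test of this difference (edgeR's quasi-likelihood test, 0.392% of all genes called, 0.103% higher and 0.29% lower), although 27 had an unadjusted p under 0.05, against 12.3% of all genes, led by Tpx2 (log2 −2.15 ± 0.58, adjusted p = 0.113). The count was 6 by DESeq2, 5 with the replicate number as a block, 24 when only the 4 groups compared were fitted and 17 without the second back bulge library, which is in none of these 4 groups. Shares of all genes under these settings are not given here.

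In the basal layer of tail skin the estimates ran the other way, above 0 for 40 of 41 genes. In the fit that did not pair same-numbered libraries, 4 of the 41 rose in LRC libraries (Aurkb, Kif11, Nusap1 and Prc1), none fell and 37 did not pass. Of all 14993 genes 4.6% were called, 3.12% higher and 1.48% lower. More members rose with pairing, as given below. The median log2 fold change was 0.74 over the 41 genes and 0.02 over all genes tested. Every LRC library lay above every nLRC library in 12 members, against 13.9% of all genes. The pairs of same-numbered libraries had 41, 34 and 40 members higher in LRC.

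Aurkb, the kinase of the chromosomal passenger complex, had 25.6, 10.2 and 13.6 CPM in tail basal LRC libraries, against 4.86, 6.62 and 6.09 CPM in tail basal nLRC libraries. It was 2.82-fold higher (log2 1.495 ± 0.34, adjusted p = 0.0345). Kif11 had 81.8, 32.4 and 49.2 CPM in tail basal LRC libraries, against 20.2, 19.7 and 20.1 CPM in tail basal nLRC libraries (log2 1.45 ± 0.33, adjusted p = 0.0382). The nLRC libraries were nearly equal and the LRC libraries spread widely, with the first LRC library highest. Nusap1, which binds and bundles spindle microtubules, had 78.3, 25.5 and 40.9 CPM in tail basal LRC libraries, against 15.6, 16.5 and 17.1 CPM in tail basal nLRC libraries (log2 1.56 ± 0.37, adjusted p = 0.0442). Prc1, which bundles the microtubules of the central spindle, had 90.5, 34.7 and 63.8 CPM in tail basal LRC libraries, against 20.8, 21.99 and 27.5 CPM in tail basal nLRC libraries (log2 1.43 ± 0.33, adjusted p = 0.0379). The coding gene Rccd1 and a non-coding gene lie across Prc1 on the other strand, so its count is uncertain.

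Of the genes followed in every LRC comparison, Top2a had 317, 123 and 187 CPM in tail basal LRC libraries, against 87.2, 74.3 and 86.6 CPM in tail basal nLRC libraries (log2 1.34 ± 0.35, adjusted p = 0.0616). Cdk1 had 42.3, 16.6 and 26.3 CPM in tail basal LRC libraries, against 12.5, 9.97 and 12.6 CPM in tail basal nLRC libraries (log2 1.28 ± 0.35, adjusted p = 0.0723). Both had all LRC libraries above all nLRC libraries and missed the threshold in this fit, which did not pair same-numbered libraries. Mki67 had 677, 346 and 498 CPM in tail basal LRC libraries, against 364, 353 and 350 CPM in tail basal nLRC libraries (log2 0.51 ± 0.27, adjusted p = 0.289). Plk1 had 27.5, 6.45 and 15.2 CPM in tail basal LRC libraries, against 16.2, 3.73 and 9.50 CPM in tail basal nLRC libraries (log2 0.74 ± 0.66, adjusted p = 0.524). For these 2 genes the groups overlapped in CPM. On the authors' TPM scale Mki67 had 180, 105 and 145 TPM in tail basal LRC libraries. All were above the 62.5, 77.2 and 90.6 TPM of tail basal nLRC libraries, while Plk1 overlapped on that scale too.

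The first tail LRC library was the highest of the 9 tail libraries for 40 of the 41 genes. Bulge markers moved with this result: 3 of 5 rose in LRC libraries, and their sum was 975 to 2105 CPM in tail basal LRC, against 275 to 468 CPM in tail basal nLRC libraries. Basal markers summed to 11644 to 11900 CPM in tail basal LRC and 20649 to 29684 CPM in tail basal nLRC libraries, and the intron share of the median gene was 17.5%, 29.0% and 25.9% in LRC and 10.3%, 15.2% and 21.4% in nLRC libraries. The part of these differences in the mitosis result was not tested. With same-numbered libraries paired as a replicate block 21 members rose, without the filter on low counts 21, by DESeq2 11, by limma on TPM 7 and with only the 2 groups fitted 2. The share of all genes called under each setting is not given here, so these counts show only dependence on the fit. The count was 0 without any 1 of 5 of the 6 libraries, namely LRC 1, LRC 3 and each nLRC library, 11 without LRC 2, and 2 without tail bulge 3.

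**Figure D4:**
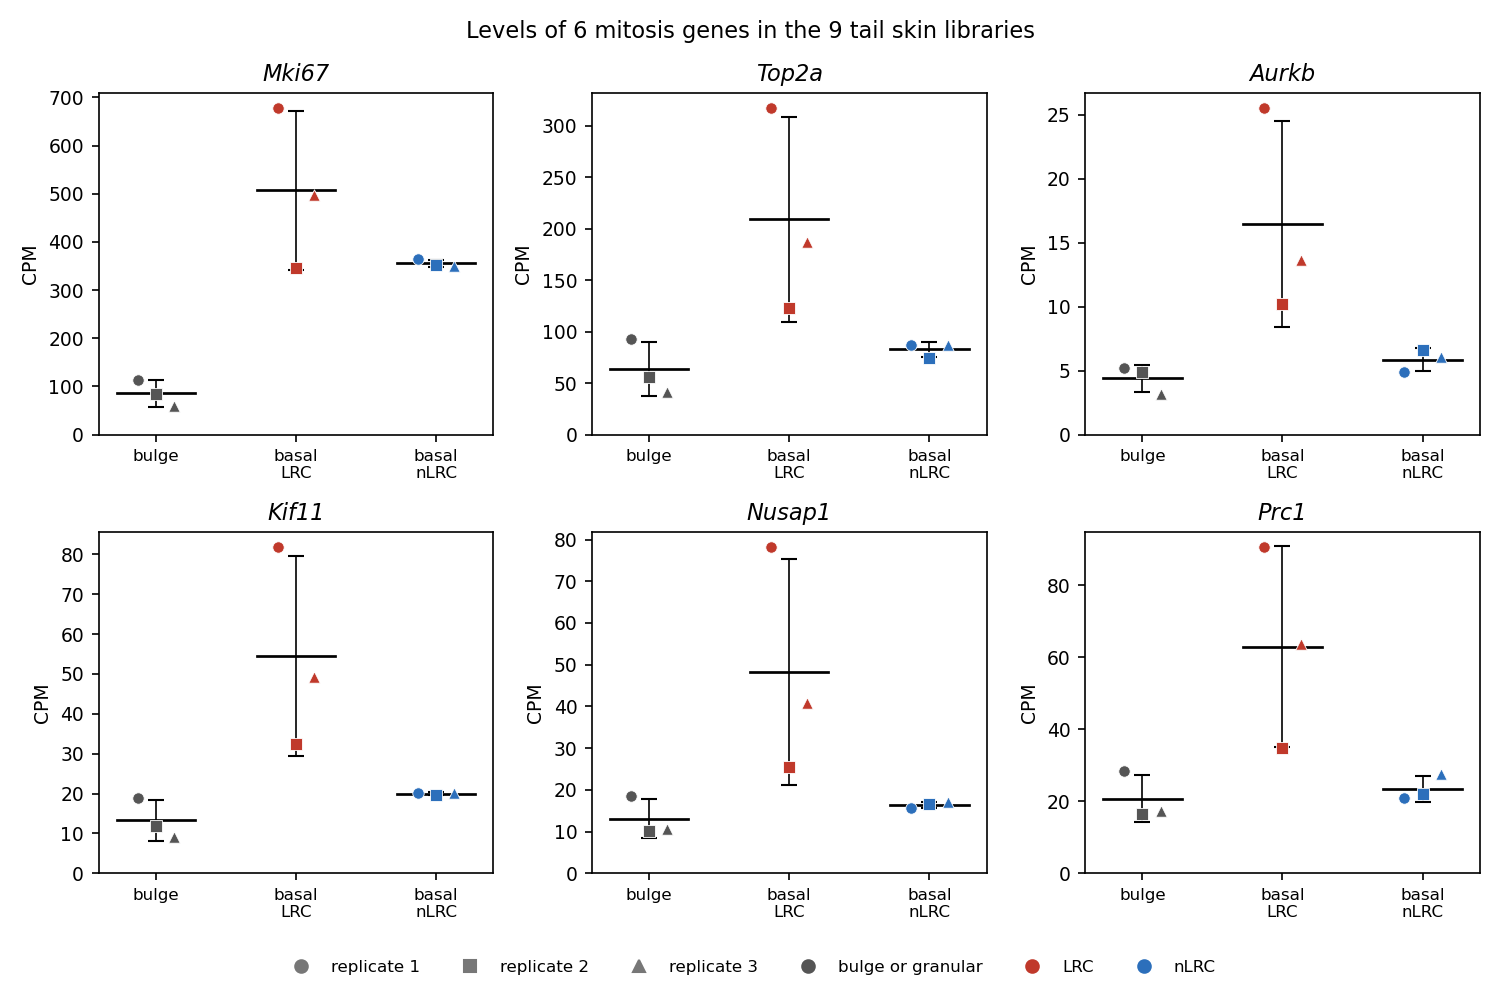
Levels (y axis, CPM) of 6 genes in the 9 tail skin libraries by group (x axis); points are libraries, lines are means and bars are SD. For Aurkb, Kif11, Nusap1, Prc1 and Top2a the 3 basal LRC libraries lie above the 3 basal nLRC libraries. For Mki67 they overlap on this CPM scale, though not in TPM.

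In palate no mitosis gene passed the test between LRC and nLRC libraries, and 0.0% of all 14923 genes did. DESeq2 also called 0 members, and 6 members had an unadjusted p under 0.05 by edgeR, against 7.25% of all genes. Those 6 were Anln (log2 1.01 ± 0.25), Aspm, Ect2, Kif11, Kif23 and Racgap1, all with positive estimates and each with an adjusted p of 0.64, and 4 of them are among the 8 cytokinesis genes. Anln, which scaffolds the contractile ring, had 65.0 and 90.5 CPM in palate LRC libraries, against 37.1 and 40.1 CPM in palate nLRC libraries. The median over the 41 genes was 0.36 on the log2 scale, 39 estimates were positive, and 14 members had both LRC libraries above both nLRC libraries, against 16.8% of all genes.

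Of the genes followed in every LRC comparison, Mki67 had 228 and 382 CPM in palate LRC libraries, against 260 and 298 CPM in palate nLRC libraries (log2 0.13 ± 0.42). Top2a had 132 and 173 CPM in palate LRC libraries, against 99.8 and 156 CPM in palate nLRC libraries (log2 0.26 ± 0.29). Cdk1 had 17.1 and 18.5 CPM in palate LRC libraries, against 10.4 and 21.6 CPM in palate nLRC libraries (log2 0.18 ± 0.34). In CPM the groups overlapped for all 3, and likewise for Plk1. Plk1 had 13.4 and 10.97 CPM in palate LRC and 6.57 and 15.1 CPM in palate nLRC libraries (log2 0.20 ± 0.36). On the authors' TPM scale Mki67 overlapped, at 50.1 and 68.2 TPM in palate LRC and 57.0 and 31.1 TPM in palate nLRC libraries. Top2a did not overlap there, with 31.7 and 33.6 TPM in LRC against 23.9 and 18.1 TPM in nLRC libraries. Nor did Cdk1 (9.21 and 8.61 against 5.35 and 6.34 TPM) or Plk1 (11.2 and 8.89 against 6.38 and 7.21 TPM). The second palate nLRC library had a TMM factor of 0.666 and an intron share of 4.51% in the median gene, and without it the median over the 41 genes was 0.79 and the count still 0.

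In tongue no mitosis gene passed either, with 0.0067% of all genes called, 0 members with an unadjusted p under 0.05 by edgeR (4.66% of all genes) and 0 calls by DESeq2. The median over the 41 genes was −0.09 on the log2 scale. Mki67 had 209 and 76.3 CPM in tongue LRC libraries, against 227 and 202 CPM in tongue nLRC libraries (log2 −0.59 ± 0.42). Top2a had 122 and 83.9 CPM in tongue LRC libraries, against 135 and 108 CPM in tongue nLRC libraries (log2 −0.24 ± 0.29). For both genes the second LRC library was the lowest of the 4 tongue libraries, and it was the lowest of the 8 oral libraries for 23 of the 41 genes. Cdk1 had 15.5 and 11.8 CPM in tongue LRC libraries, against 15.3 and 11.2 CPM in tongue nLRC libraries (log2 0.05 ± 0.35), and Plk1 had 7.87 and 8.35 CPM in tongue LRC libraries, against 8.19 and 9.004 CPM in tongue nLRC libraries (log2 −0.09 ± 0.36). In 3 members, Ccna2, Ndc80 and Tacc3, both LRC libraries lay below both nLRC libraries, against 20.2% of all genes. Endothelial markers summed to 2.17 and 4.88 CPM in tongue LRC, against 34.0 and 25.1 CPM in tongue nLRC libraries. Fibroblast markers summed to 76.3 and 35.9 CPM against 178 and 118 CPM. In sum the bulge list went the other way, at 2473 and 3049 CPM against 1714.5 and 1488 CPM. Of its 5 markers only 2 could be tested, with log2 values of −2.26 and 0.79, and neither passed. The part of cell makeup in the mitosis result was not tested.

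The LRC effect in tail basal cells minus that in back basal cells was positive for 40 of 41 genes, with a median of 0.94 on the log2 scale, against 0.04 over all 17103 genes. Aurkb alone passed this test (log2 2.15 ± 0.47, edgeR's quasi-likelihood test, adjusted p = 0.0163), against 2.71% of all genes called, 2.1% higher. Aurkb had 4.95, 7.33 and 6.47 CPM in back basal LRC libraries, against 8.40, 8.80 and 12.7 CPM in back basal nLRC libraries, so its estimate there was negative (log2 −0.67) and did not pass. In that test 20 members had an unadjusted p under 0.05, against 13.6% of all genes. The count was 20 with the replicate block, 19 without the filter, 5 by DESeq2 and 4 by limma on TPM. It was 0 without back nLRC 3 or tail nLRC 1, 2 without back nLRC 1 or palate nLRC 2, 3 without back LRC 3 and 7 without tail LRC 2. Shares of all genes under these settings are not given here. The counts of the 2 sets of tables come from different gene lists and were joined by name.

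Across the layers of back skin, members were called between spinous and basal LRC libraries and between granular and basal libraries, and none between spinous and basal nLRC libraries. Spinous LRC against basal LRC libraries gave 9 members lower, 1 higher (Ttk) and 31 not passing, against 6.05% of all genes called, 2.85% lower and 3.2% higher, with a median log2 fold change of −1.496 for the 41 and 0.01 for all genes. Spinous nLRC against basal nLRC libraries gave 0 of 41 by edgeR and 0 by DESeq2, with 0 members at an unadjusted p under 0.05 (15.2% of all genes), against 4.17% of all genes called, 2.75% higher and 1.42% lower, and a median of 0.33. The difference between these 2 layer effects is the same quantity as the difference of LRC effects above, for which 0 members passed. Granular against all basal libraries gave 27 members lower, 1 higher (Ttk) and 13 not passing, against 20% of all genes called, 8.85% lower and 11.2% higher, with a median of −1.81.

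Anln had the smallest p in both layer comparisons that gave calls. It had 4.57, 11.02 and 7.24 CPM in granular, 7.47, 14.5 and 18.1 CPM in spinous LRC, 51.5, 43.6 and 58.2 CPM in basal LRC and 56.9, 54.8 and 57.8 CPM in basal nLRC libraries. Anln was 7.07-fold lower in granular than in basal libraries (log2 −2.82 ± 0.40, adjusted p = 7.72e-05) and 3.82-fold lower in spinous LRC than in basal LRC libraries (log2 −1.93 ± 0.41, adjusted p = 0.00919). Ect2, the exchange factor that turns on RhoA at the cell equator, had 3.20, 5.83 and 2.98 CPM in granular, 3.95, 7.81 and 6.30 CPM in spinous LRC and 18.2, 20.5 and 20.4 CPM in basal LRC libraries. Ect2 was 4.92-fold lower in granular than in basal libraries (log2 −2.30 ± 0.40) and 3.27-fold lower in spinous LRC than in basal LRC libraries (log2 −1.71 ± 0.42). Both genes act in cytokinesis, and both lay far below every basal library in granular and spinous LRC libraries. In spinous nLRC libraries Anln, at 31.7, 55.6 and 36.9 CPM, and Ect2, at 12.9, 25.1 and 20.1 CPM, overlapped the basal libraries.

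Kif4, a motor bound to mitotic chromosomes, had 4.82, 7.43 and 5.25 CPM in granular, 5.16, 8.97 and 11.2 CPM in spinous LRC and 22.6, 17.5 and 23.8 CPM in basal LRC libraries. It was 3.53-fold lower in granular libraries (log2 −1.82 ± 0.31, adjusted p = 0.000456) and 2.53-fold lower in spinous LRC libraries (log2 −1.34 ± 0.34, adjusted p = 0.0238). Tpx2 had 3.40, 4.87 and 5.68 CPM in granular and 18.3, 15.2 and 17.4 CPM in basal LRC libraries. It was 3.97-fold lower in granular libraries (log2 −1.99 ± 0.39) and 3.61-fold lower in spinous LRC libraries (log2 −1.85 ± 0.42). Ttk was 3.66-fold higher in granular than in basal libraries (log2 1.87 ± 0.31, adjusted p = 0.000294) and 2.83-fold higher in spinous LRC than in basal LRC libraries (log2 1.501 ± 0.38, adjusted p = 0.0237). By role, granular libraries had 9 of 10 spindle genes, 5 of 7 kinetochore genes, 5 of 8 cytokinesis genes, 3 of 4 genes of the entry switch and 2 of 4 passenger genes lower, while both genes of the anaphase ubiquitin ligase did not pass.

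Granular against spinous LRC libraries gave 0 of 41 calls, against 0.977% of all genes called, and a median of −0.18. Granular against spinous nLRC libraries gave 33 members lower and 1 higher, against 14.2% of all genes called, 7.51% lower and 6.67% higher, with a median of −2.27. In granular libraries 8 of 12 sebocyte, 4 of 5 immune and all 3 granular markers rose and 4 of 5 basal markers fell against basal libraries, and their part in the mitosis result was not tested. The spinous LRC count against basal LRC was 18 lower and 1 higher with the replicate block, 31 in all when only the 2 groups were fitted and 30 without the second back bulge library, and it ranged from 1 to 4 without any 1 of 5 of the 6 libraries compared. Ttk lost its call in that comparison without any 1 of 5 of the 6 libraries, with adjusted p up to 0.111. The granular count was 13 without the first and 16 without the third granular library. It was 39 without the second back bulge library, which is in none of the groups compared. Shares of all genes under these settings are not given here.

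**Figure D5:**
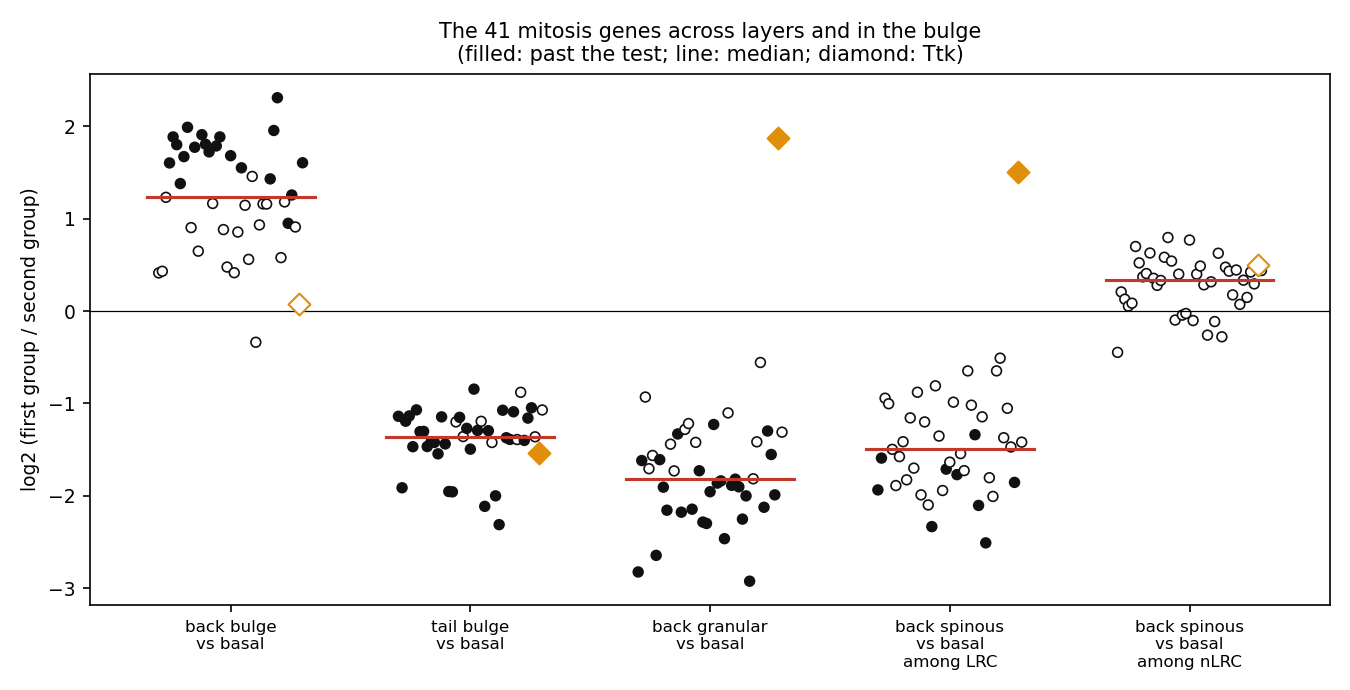
Log2 fold change (y axis) of the 41 genes in 5 comparisons of layers and bulge (x axis); each point is a gene, filled where it passed the test, red lines are medians and the diamond is Ttk. The median is 1.23 in the back bulge, −1.36 in the tail bulge, −1.81 in granular, −1.496 in spinous LRC and 0.33 in spinous nLRC libraries.

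The bulge, which houses hair follicle stem cells, had lower levels of these genes than basal cells in tail skin, and in back skin the result rests on 1 library. In the tail bulge 33 of 41 genes fell relative to all tail basal libraries, none rose and 8 did not pass, against 24.6% of all genes called, 10.4% lower. The median log2 fold change was −1.36 over the 41 genes, all negative, and −0.01 over all genes. All 7 kinetochore genes, all 4 genes of the entry switch and all 4 passenger genes fell.

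Mki67 had 114, 84.1 and 58.2 CPM in tail bulge libraries, against 677, 346 and 498 CPM in basal LRC and 364, 353 and 350 CPM in basal nLRC libraries. All bulge libraries lay far below all basal libraries, and Mki67 was 4.96-fold lower (log2 −2.31 ± 0.27, adjusted p = 0.000149). Kif4 had 12.0, 8.51 and 8.23 CPM in tail bulge, against 46.1, 29.0 and 38.2 CPM in basal LRC and 40.5, 26.2 and 51.3 CPM in basal nLRC libraries (log2 −1.999 ± 0.26, adjusted p = 0.000311). Kif4 was thus low in the bulge, and its LRC estimate in the basal layer (log2 −0.06), the 1 negative estimate there, did not pass. On the authors' TPM scale each tail basal LRC library was above its same-numbered nLRC library for Kif4. The LRC libraries had 15.6, 7.55 and 10.3 TPM and the nLRC libraries 7.5, 5.04 and 8.6 TPM. Cenpf had 32.8, 16.5 and 16.6 CPM in tail bulge, against 209, 70.1 and 130 CPM in basal LRC and 60.5, 38.6 and 63.8 CPM in basal nLRC libraries (log2 −1.96 ± 0.38, adjusted p = 0.00395). Cenpe had 15.3, 10.2 and 7.62 CPM in tail bulge, against 78.4, 29.5 and 54.0 CPM in basal LRC and 50.8, 21.7 and 32.2 CPM in basal nLRC libraries (log2 −1.95 ± 0.38, adjusted p = 0.0044). Kif20b, a kinesin of cytokinesis, had 8.26, 3.18 and 4.57 CPM in tail bulge, against 50.0, 16.5 and 32.7 CPM in basal LRC and 23.1, 9.69 and 17.3 CPM in basal nLRC libraries (log2 −2.11 ± 0.45, adjusted p = 0.00655). For each of these genes the highest bulge library was below the lowest basal library.

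All 5 bulge markers rose in tail bulge libraries, and 5 of 5 endothelial markers rose with them, at 76.8 to 132 CPM in sum in tail bulge, 14.1 to 24.9 CPM in tail basal LRC and 20.6 to 24.9 CPM in tail basal nLRC libraries. The part of other cells in the mitosis result was not tested. Against basal LRC libraries alone 36 members were lower, where 19.1% of all genes were called in either direction. Against basal nLRC libraries alone 9 of 41 were lower, near the 23.3% of all genes called in either direction, with a median of −0.9999. Shares of all genes lower are not given for these contrasts. The count against all basal libraries was 8 without the second or the third bulge library and 18 without the first tail nLRC library. Shares of all genes under these settings are not given here.

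In the back bulge 20 of 41 genes were called higher than in basal libraries and none lower, against 26.3% of all genes called, 15.7% higher, with a median of 1.23 against 0.06 over all genes. Plk1 had 10.7, 75.2 and 9.19 CPM in back bulge libraries, against 2.84, 6.27 and 4.24 CPM in basal LRC and 5.10, 11.5 and 10.0 CPM in basal nLRC libraries (log2 2.31 ± 0.53, adjusted p = 0.00378). Cdk1 had 15.9, 111 and 14.0 CPM in back bulge libraries (log2 1.91 ± 0.48, adjusted p = 0.00685), and the other two libraries lay within the 8.95 to 16.2 CPM of basal libraries. Ckap2, a spindle-associated protein, had 15.02, 83.6 and 14.8 CPM in back bulge libraries, against 7.49, 10.6 and 10.2 CPM in basal LRC and 9.78, 10.8 and 11.8 CPM in basal nLRC libraries, the 1 member with no overlap, against 10.3% of all genes (log2 1.88 ± 0.42, adjusted p = 0.00276). Cenpa, the histone that marks centromeres, had 14.2, 71.7 and 14.2 CPM in back bulge libraries (log2 1.80 ± 0.49, adjusted p = 0.011), and Cenpe had 7.06, 67.2 and 12.3 CPM (log2 1.72 ± 0.48, adjusted p = 0.0134).

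Without the second bulge library none of the 41 genes was called higher, 1 was called lower and the median was −0.10. The count was 10 to 13 without the first or second basal library of either group, 33 without the third bulge library, 6 when only these groups were fitted, 11 against basal LRC libraries alone (22.8% of all genes called) and 2 against basal nLRC libraries alone (16.5%). Shares of all genes are not given for fits leaving out a library, for the fit of only these groups or for limma below. All 8 melanocyte and all 5 endothelial markers rose in back bulge libraries, with the second library lowest in both sums (84.8 and 39.2 CPM), and their part in the mitosis result was not tested. On the authors' TPM scale that library stood out less: the members summed to 799, 989 and 590 TPM in back bulge, against 536, 532 and 565 TPM in basal LRC and 501, 706 and 675 TPM in basal nLRC libraries, and limma on TPM called 2 members higher.

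Genes related to the 41 were read from lists drawn up with earlier results of these data known. Of 50 other mitosis genes, 27 fell and none rose in spinous LRC against nLRC libraries (median −1.81, 8.63% of all genes lower), and 3 rose and none fell in tail basal LRC libraries (median 0.90, 3.12% of all genes higher). Those 3 were the condensin subunits Ncaph (log2 1.62 ± 0.30) and Ncapg2 (log2 1.14 ± 0.23) and the kinetochore protein Kntc1 (log2 1.49 ± 0.28). In granular libraries 24 fell and 1 rose (8.85% and 11.2% of all genes), Psrc1, a microtubule-binding protein (log2 2.26 ± 0.39, adjusted p = 0.000464). Of 35 DNA replication genes, 6 fell in spinous LRC against nLRC libraries (median −0.96), where 8.63% of all genes fell. In spinous LRC against basal LRC libraries 18 fell (2.85% of all genes), in granular against basal libraries 31 (8.85%) and in tail bulge against basal libraries 14 (10.4%), and 0 passed in either direction between basal LRC and nLRC libraries of back skin, tail skin, palate or tongue. Of 22 transcription regulators of these genes, 1 was called in tail basal LRC libraries and 1 in each direction in spinous LRC against nLRC libraries, near the shares of all genes (3.12% higher in tail, 6.88% higher and 8.63% lower in spinous). They were Mybl2, which encodes B-Myb, in tail (log2 1.12 ± 0.23, adjusted p = 0.0227), and Rb1, higher, and E2f7, lower, in the spinous layer, where Foxm1 did not pass (log2 −1.72 ± 0.62, adjusted p = 0.0727). In granular against basal libraries 6 regulators fell (Mybl2, Rbl1, E2f1, E2f7, E2f8 and Tfdp1) and Rb1 rose (8.85% and 11.2% of all genes). In tail bulge 4 fell (Foxm1, E2f2, E2f8 and Tfdp1, 10.4% of all genes). In spinous LRC against basal LRC libraries 3 fell (Rbl1, E2f1 and E2f7, 2.85%). With the second bulge library included, Foxm1 rose and Rbl1 fell in back bulge (15.7% and 10.6%).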

How the data were processed

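RNA was measured in 35 bulk libraries of sorted cells, made with a stranded total RNA kit for small inputs (SMARTer Pico), per the labels' protocols. The tables the authors deposited give a read count per gene, TPM and RPKM, on build mm10 per the submitters' processing notes; which aligner, counter and annotation were used, and whether counting used strand, is not given in the sources used here. Intron reads are included in the deposited counts and not in the deposited TPM and RPKM, as estimated from the values. RPKM served only for this estimate of the intron share, which used exon lengths of an annotation that may differ from the authors'. The estimate was negative for some members, such as −192% for Ndc80 in the first tail basal nLRC library, so printed shares are approximate. Counts were tested with edgeR 4.0.16 in R 4.3.3 (quasi-likelihood, TMM, filterByExpr with a minimum count of 10 and total of 15, Benjamini-Hochberg threshold 0.05 over all genes tested), in 1 fit each for back, tail and oral libraries and 1 over all basal libraries. TPM was tested with limma 3.58.1 on log2(TPM + 1). DESeq2 1.42.0, other scalings, no filter, a replicate block, fits of only the groups compared and leaving out each library were alternatives. The fits were tested on simulated counts.

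The members, lists and tests were chosen with earlier results of these data known. Named genes were Mki67, Top2a, Cdk1 and Plk1 in each LRC comparison, with up to 6 further called members of smallest p there and up to 5 in the other comparisons, and any called member against the main direction. Reported counts come from fits without the replicate block, and the blocked count is printed where it differs by over 1.5 times. The labels name no shared animal; same-numbered libraries were taken to pair where there were 3 pairs and each correlated over 0.1 in deviations from the group means: 0.233 to 0.322 between back basal LRC and nLRC, 0.163 to 0.291 between spinous LRC and nLRC, and 0.326 to 0.585 in tail skin; bulge pairs fell to 0.036 in back and −0.044 in tail skin. Replicates differed by more than sampling noise (lowest chi-square 23.1 per degree of freedom), so none was counted as a duplicate. Promoter windows came from RefSeq.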

Additional observations from a re-analysis of the deposited data

Results flagged for a closer look

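Aurkb was singled out because its LRC effect differed between tail and back basal cells by the test of the difference itself: 2.15 on the log2 scale (SE 0.47, edgeR's quasi-likelihood test, adjusted p = 0.0163), with all 3 tail LRC libraries above all 3 tail nLRC libraries and all 3 back LRC libraries below all 3 back nLRC libraries. Aurkb was the 1 member of 41 called, near the 2.71% of all 17103 genes called in that test, 2.1% higher. Its adjusted p by that test was 0.0523 without back nLRC 3 and 0.0520 without tail nLRC 1. These fits left same-numbered libraries unpaired, and with the replicate block more members passed the test of the difference. The share of all genes called with the block is not given here.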

How the results depend on the processing

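The counts of members called moved by over 1.5 times under these alternatives, and the cause was not tested. Shares of all genes called under the same alternatives are not set beside these counts. The counts thus show only how far the calls depend on the fit. In tail basal cells (4 in the report) the count was 21 without the filter, 11 by DESeq2, 7 by limma on TPM, 2 with only the groups compared and 21 with the replicate block. For the spinous minus basal effect (0) it was 5, 6 by DESeq2, 24 with only the groups compared and 5 with the replicate block, and for tail minus back (1) 19, 5, 4 by limma and 20 with the block. For spinous against basal LRC (10) it was 20 without the filter, 31 with only these groups and 19 with the block, and in palate (0) 2 without the filter. Chosen after the data were seen, granular against spinous LRC gave 0, back bulge against LRC or nLRC alone 11 and 2, and tail bulge against nLRC alone 9; back bulge gave 2 by limma and 6 with only these groups. The block changed no other count by that much; in palate and tongue, whose 2 pairs (correlations 0.283 and 0.047) are too few to show pairing, it gave 0. Leaving out 1 library gave 9 to 37 in spinous LRC against nLRC, 0 to 11 in tail basal, 0 to 17 for spinous minus basal, 0 to 7 for tail minus back, 1 to 30 for spinous against basal LRC, 13 to 39 in granular, 1 to 33 in back bulge and 8 to 40 in tail bulge, and 0 in the other 4. Of 582 recomputed single-gene values, 505 kept direction and side of the threshold, 60 lost and 9 gained a call and 8 reversed. On the log2 scale, in palate, Mki67 ranged from −0.31 (without LRC 2) to 0.45, Top2a from −0.0098 to 0.60, Cdk1 from −0.26 to 0.76 and Plk1 from −0.28 to 0.87 (each without nLRC 1 and nLRC 2); in tongue, Top2a ranged from −0.52 to 0.0069 (without LRC 1 and LRC 2), and Cdk1 from −0.16 (without nLRC 2) to 0.29, with −0.15 without LRC 1 and −0.145 by limma on TPM. Groups of 2 or 3 libraries and low counts of members such as Plk1 limit what could be detected.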
